A study of Mus musculus with 12 samples.

Results

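Mitochondrial ribosomal protein genes were taken from the count table by their symbols, Mrpl or Mrps followed by a number and at most 1 letter, which gave 78 of 55335 genes (49 with an Mrpl name and 29 with an Mrps name) on 17 chromosomes. They were followed in RNA-seq of hematopoietic stem cells (HSCs) sorted from the bone marrow of Ythdc1Δ/Δ mice, labelled Ythdc1 KO, and of Ythdc1+/+ mice, labelled wild type. Ythdc1 encodes a nuclear reader of the RNA modification m6A, and the study asked what its loss changes in HSCs. Ythdc1Δ/Δ mice were Ythdc1fl/fl Mx1-Cre mice given pIpC, and Ythdc1+/+ mice also carried Mx1-Cre and received pIpC, so the recombinase and the interferon response that pIpC triggers were common to both. Mx1-Cre is active in many cell types that respond to interferon and not only in HSCs. The strain label is C57B6, and the donors were 8 weeks old by the methods. Each genotype had 6 libraries in 3 pairs of equal title number. The pairs were KO176, KO177 and KO209 in Ythdc1Δ/Δ HSCs and WT178, WT180 and WT207 in Ythdc1+/+ HSCs, and each pair was summed to 1 sample. Whether a title number marks a mouse is not given by the labels, so p-values cover only the variation among the 6 samples, part of which may be technical.

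The summed samples held 45939230 to 46937648 counts in Ythdc1Δ/Δ and 42098649 to 48095239 counts in Ythdc1+/+ HSCs. Ythdc1 itself was at 56.8, 69.5 and 69.5 CPM (counts of a gene per 1000000 counts of the sample, after TMM scaling) in samples KO176, KO177 and KO209, against 75.9, 72.5 and 92.4 CPM in WT178, WT180 and WT207, a log2 fold change of -0.30 (SE 0.13, adjusted p = 0.52, edgeR). Its counts span all exons and do not separate the deleted part from the rest, so this level is a weak check of the labels. The HSC markers Kit and Procr averaged 206 and 33.5 CPM in Ythdc1Δ/Δ and 250 and 46.7 CPM in Ythdc1+/+ samples, while the T cell marker Cd3e stayed at 0.088 to 0.34 CPM. Slamf1 (CD150), which the LT-HSC gate of the study requires, averaged only 7.39 and 9.31 CPM. Cd48 and Flt3, which that gate excludes, averaged 363 and 428 CPM in Ythdc1Δ/Δ and 296 and 363 CPM in Ythdc1+/+ samples. Ly6a (Sca1) ran from 152 to 525 CPM over the 6 samples. These RNA levels do not settle how pure the sorted cells were. Of 18234 genes tested, 25 differed between the genotypes at an adjusted p under 0.05 in edgeR's quasi-likelihood test.

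Mitochondria have ribosomes of their own. Their protein subunits are encoded in the nucleus, made in the cytoplasm and imported, and they assemble on ribosomal RNAs of the mitochondrial genome into a small subunit, which decodes the mRNA, and a large subunit, which forms the peptide bond. These ribosomes translate the few proteins that mitochondrial DNA encodes, all of them parts of the oxidative phosphorylation system. HSCs are known for a low reliance on respiration at rest, and their mitochondrial activity rises as they divide and differentiate. By the structure of the ribosome, 51 of the 78 genes encode large subunit proteins (Mrps30 and Mrps18a among them, despite their names) and 26 small subunit proteins. Mrps36 is counted in neither, since its product is now known as part of the oxoglutarate dehydrogenase complex.

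The genes share features of sequence and position that their names do not use. RefSeq promoters of the mouse genome (GRCm38.p6, 250 bases before to 50 after a start) were found for 69 of the 78 genes. The letters CCGGAAG, the core that ETS factors such as GABPA bind, stood on either strand in 26 of the 69 (37.7%), against 9.93% of 27025 genes with such a promoter. The NRF1 motif GCGCATGCG was in 7 (10.1%, against 1.95% of all) and the YY1 motif AAGATGGCG in 8 (11.6%, against 1.64%). All 3 factors are known regulators of nuclear genes for mitochondrial proteins. At least 1 of these motifs was in 36 of the 69 promoters (52.2%, against 12.7%). The E-box CACGTG (7.25% against 8.09%), CCAAT (39.1% against 41.1%) and the CRE TGACGTCA (2.90% against 2.03%) stood near the shares of all promoters. A match describes letters in a window and is not a measured site.

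Stretches of 180 bases, 150 before to 30 after the start, are shown for 5 of these promoters, with the motif in capitals on the strand of the gene. Mrps22 and Mrpl52 are shown because they had the smallest p among genes higher and lower in Ythdc1Δ/Δ HSCs, Mrpl58 because it differed most between sets of samples described later, and Mrpl10 and Mrps11 as examples of NRF1 and YY1 motifs. In Mrps22 at chr9:98601650-98601829 (minus strand), Mrpl52 at chr14:54426759-54426938 (plus strand) and Mrpl58 at chr11:115403602-115403781 (plus strand) the capitals are ETS motifs. Mrpl10 at chr11:97041432-97041611 (plus strand) holds an NRF1 motif and Mrps11 at chr7:78782981-78783160 (plus strand) a YY1 motif.
Mrps22: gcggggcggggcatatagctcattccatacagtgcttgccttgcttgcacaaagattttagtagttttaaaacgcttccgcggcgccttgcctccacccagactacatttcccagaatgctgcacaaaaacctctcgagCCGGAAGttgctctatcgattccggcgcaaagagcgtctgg
Mrpl52: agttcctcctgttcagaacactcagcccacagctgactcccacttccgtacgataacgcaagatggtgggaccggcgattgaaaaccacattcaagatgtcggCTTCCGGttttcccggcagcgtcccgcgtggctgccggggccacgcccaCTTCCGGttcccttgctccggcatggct
Mrpl58: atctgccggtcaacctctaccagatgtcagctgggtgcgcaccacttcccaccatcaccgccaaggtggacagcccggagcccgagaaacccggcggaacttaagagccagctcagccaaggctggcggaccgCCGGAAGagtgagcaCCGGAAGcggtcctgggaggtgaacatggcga
Mrpl10: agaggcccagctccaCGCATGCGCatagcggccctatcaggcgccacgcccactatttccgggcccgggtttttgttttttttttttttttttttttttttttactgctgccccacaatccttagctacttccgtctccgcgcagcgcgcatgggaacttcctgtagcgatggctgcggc
Mrps11: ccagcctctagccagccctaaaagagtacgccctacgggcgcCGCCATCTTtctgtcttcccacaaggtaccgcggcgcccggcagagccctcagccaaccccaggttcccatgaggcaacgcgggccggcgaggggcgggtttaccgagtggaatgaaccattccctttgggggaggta

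A second shared feature was a close neighbour. Of the 78 genes, 23 (29.5%) started within 1000 bases of a protein-coding gene that is read away from them on the other strand, against 8.62% of 21886 protein-coding genes (pairs overlapping by up to 300 bases were included). Mrps12, whose product sits at the decoding centre, is paired in this way with Sars2, the mitochondrial seryl-tRNA synthetase, Mrpl36 with the complex I subunit gene Ndufs6, and Mrpl49 with Fau, which encodes a cytosolic ribosomal protein. None of the 23 partners had an unadjusted p under 0.05 between the genotypes, where 9.48% of all genes did, and their median log2 fold change was 0.09.

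Levels were compared between genes per length, as TPM, in which counts per exon length are scaled to a fixed total, computed from the counts and the exon lengths. The 77 genes with reads were abundant as a group, with a median of 99.5 TPM over the 6 samples against 7.41 TPM for all tested genes, and 89.0% of tested genes lay below that median. They spanned a 26.4-fold range. The highest were Mrpl28 at 536 ± 89.6 TPM in Ythdc1Δ/Δ and 544 ± 27.5 TPM in Ythdc1+/+ HSCs (SD, n = 3 each), Mrpl34 at 449 ± 54.9 and 515 ± 5.59 TPM, Mrpl12 at 450 ± 108 and 426 ± 24.9 TPM, and Mrpl36 at 425 ± 49.5 and 432 ± 31.7 TPM. In Ythdc1+/+ samples Mrpl34 was above Mrpl12 and Mrpl36 by more than their SD, and the other neighbours in this order overlapped within their SD. Mrpl12 forms the stalk that recruits translation factors, and Mrpl28, Mrpl34 and Mrpl36 are subunits of the large particle.

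**Figure D1:**
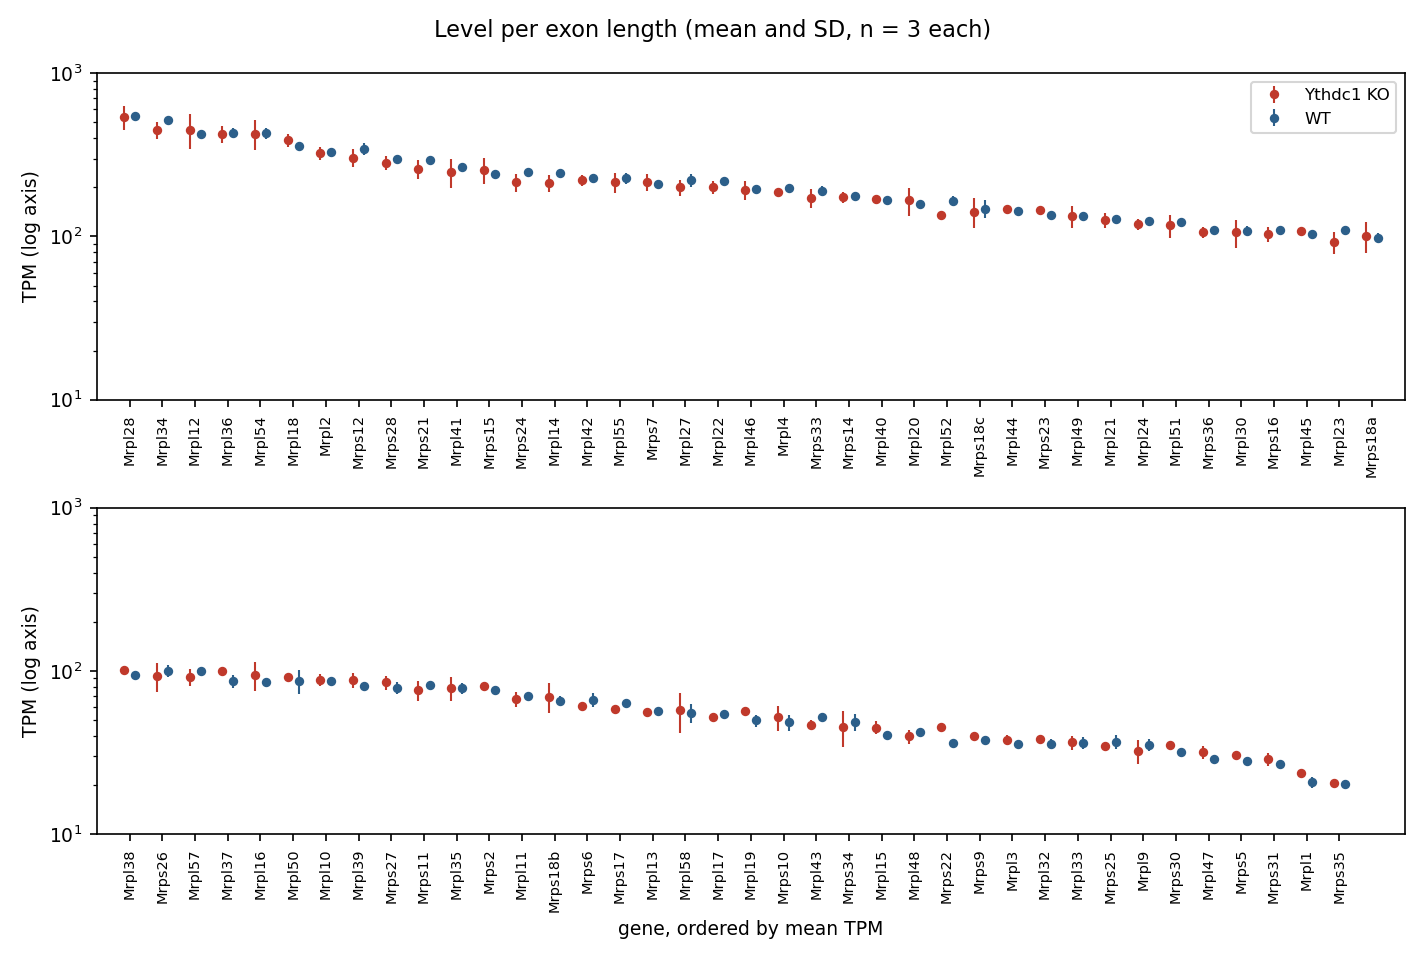
Level of each of the 77 genes with reads in TPM (vertical axis, log scale), ordered by the mean over 6 samples from left to right and top to bottom. Points are means and bars SD of 3 samples, Ythdc1 KO in red and WT in blue, and the order runs down to Mrps35 at 20.5 TPM in Ythdc1 KO and 20.4 TPM in WT.

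The lowest were Mrps35 at 20.5 ± 0.87 TPM in Ythdc1Δ/Δ and 20.4 ± 1.18 TPM in Ythdc1+/+ HSCs, Mrpl1, the protein of the L1 stalk through which spent tRNAs leave, at 22.2 TPM over the 6 samples, Mrps31 at 28.7 ± 2.71 and 26.8 ± 0.29 TPM, and Mrps5 at 30.5 ± 0.76 and 28.1 ± 1.64 TPM. Exon lengths are the union over all transcripts, and Mrps35 (8631 bases) and Mrps5 (6578 bases) have long ones, which lowers a level per length. The order of the 77 genes was nearly the same in both genotypes, and no gene moved by more than 7 places. Large subunit genes had a median of 103 TPM and small subunit genes of 80.5 TPM.

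Mrpl53, a component of the L7/L12 stalk region, had 0 counts in all 12 libraries and was not tested. In the annotation, 88.0% of its exon bases also belong to Gm42688 or Ccdc142os, and read pairs over exons of both genes were not assigned. The part of this overlap in the 0 counts was not tested. Mrps34 (77.8% of exon bases shared), Mrps25 (69.8%) and 7 others shared over 20% of their exon bases. They had counts, and their levels per length may be too low where read pairs were not assigned. The 37 genes that the mitochondrial genome itself encodes also had 0 counts in the table.

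None of the 77 tested genes differed between Ythdc1Δ/Δ and Ythdc1+/+ HSCs at an adjusted p under 0.05 in edgeR, where 0.137% of all genes did, and 1 had an unadjusted p under 0.05, against 9.48% of all genes. None was changed at least 2-fold at an unadjusted p up to 0.05, the rule of the study, which 1.97% of all genes met. DESeq2 also called none, against 1.21% of all genes, and gave 1 at an unadjusted p under 0.05, against 9.19% of all genes. Log2 fold changes ran from -0.23 to 0.37 with a median of 0.04, against a median of -0.01 for all genes, and 49 of 77 (63.6%) were above 0, as were 48.9% of all genes. The data bound the size of a change. All 77 of the 95% intervals lay inside a 2-fold difference in either direction, and the widest limits were -0.58 for Mrps34 and 0.78 for Mrpl58 on the log2 scale. The samples of the genotypes did not overlap for 7 of 77 genes (9.09%), against 16.3% of all genes.

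**Figure D2:**
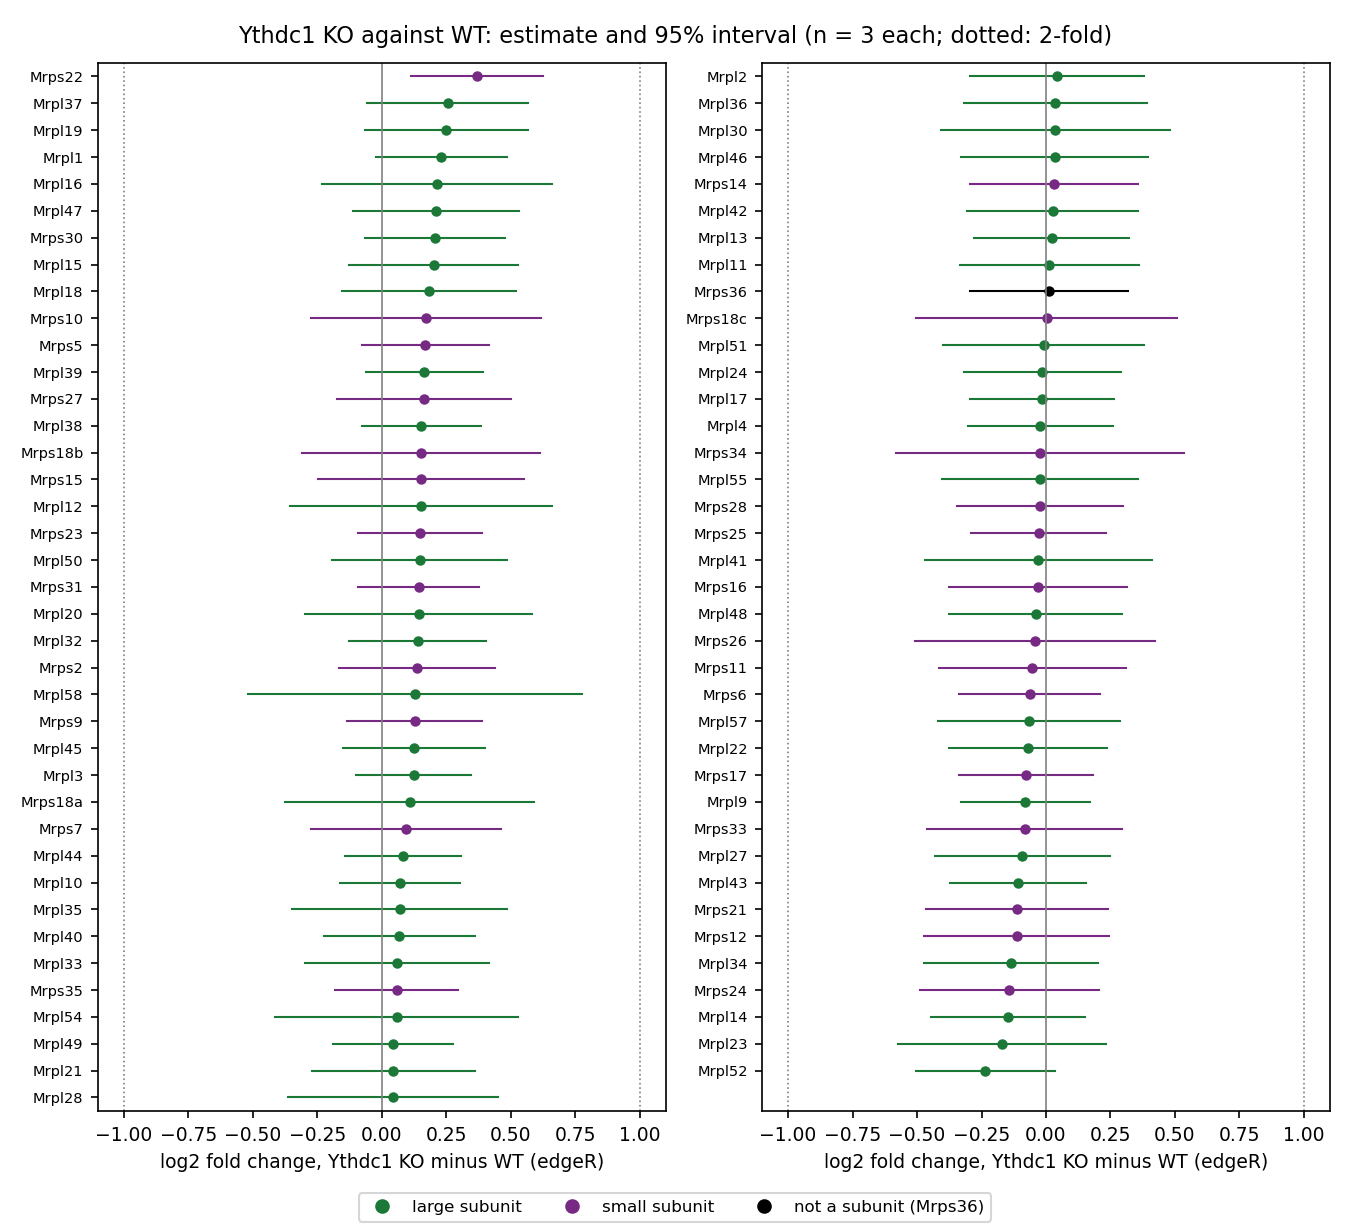
Log2 fold change, Ythdc1 KO minus WT (horizontal axis), of the 77 tested genes in order of size (vertical axis, continued in the right panel). Points are edgeR estimates and bars 95% intervals from 3 samples per genotype, coloured by subunit, and all lie between the dotted lines at a 2-fold difference (-1 and 1).

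Mrps22, a small subunit protein whose mutation in humans causes a respiratory chain deficiency, is encoded at chr9:98588730-98601660 (mm10). Its level was 76.8, 68.4 and 62.4 CPM in KO176, KO177 and KO209, against 53.8, 56.2 and 50.7 CPM in WT178, WT180 and WT207. Every Ythdc1Δ/Δ sample was above every Ythdc1+/+ sample, and the log2 fold change was 0.37 (SE 0.11, 95% interval 0.11 to 0.63), with an adjusted p = 0.34 in edgeR. Mrps22 passed only where the 12 libraries were entered as separate samples (adjusted p = 0.010, edgeR), which treats the libraries of 1 number as independent. In that fit, 4.83% of all genes had an adjusted p under 0.05. An unadjusted p under 0.05 was found there for 21.2% of all genes and 10 of the 77. Over the other alternatives the adjusted p of Mrps22 was 0.074 to 0.76.

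In 5 more genes every Ythdc1Δ/Δ sample was above every Ythdc1+/+ sample. Mrpl1 was at 40.6, 38.7 and 36.8 CPM in KO176, KO177 and KO209, against 36.4, 31.4 and 31.1 CPM in WT178, WT180 and WT207 (log2 fold change 0.23, SE 0.11). Mrpl39, a large subunit protein related to threonyl-tRNA synthetase, was at 83.4, 87.6 and 82.6 CPM in these Ythdc1Δ/Δ samples, against 79.2, 74.8 and 72.2 CPM in the Ythdc1+/+ samples (0.17, SE 0.10). Mrpl38, a protein of the central protuberance of the large subunit, was at 102, 100.1 and 93.0 CPM against 92.7, 88.4 and 84.2 CPM (0.15, SE 0.10). Mrps31 and Mrpl3, which was named for this pattern after its values were seen, completed the 5. None of these passed the adjusted test in edgeR, where their adjusted p was 0.57 to 0.73. Among the 4 samples other than KO209 and WT207, the log2 fold change was 0.39 for Mrps22 and 0.22 for Mrpl1, and the log2 difference of KO209 from WT207 was 0.30 and 0.24.

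Mrpl52, another protein of the central protuberance, was the 1 gene whose Ythdc1Δ/Δ samples all lay below the others, at 61.2, 61.4 and 48.6 CPM in KO176, KO177 and KO209, against 64.0, 68.9 and 68.4 CPM in WT178, WT180 and WT207. Its log2 fold change was -0.23 (SE 0.12, adjusted p = 0.58, edgeR). KO209 stood apart from the other Ythdc1Δ/Δ samples, and without it the estimate was -0.13. Mrpl37, Mrpl19, Mrps30, Mrps5, Mrpl47, Mrps23 and Mrpl15 completed the 12 genes with the smallest p, with log2 fold changes of 0.15 to 0.26 and overlapping samples. Of Mrpl19, 36.0% of the exon bases are shared with Gcfc2.

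By place in the ribosome, the differences between the genotypes were small. The 3 tested genes of the L7/L12 stalk had log2 fold changes of 0.07 (Mrpl10), 0.01 (Mrpl11) and 0.15 (Mrpl12). The 5 genes at the polypeptide exit, where Mrpl45 anchors the ribosome to the inner membrane, ran from -0.17 (Mrpl23) to 0.21 (Mrpl47). The decoding centre gene Mrps12 was at -0.11, and the 7 genes of the central protuberance had a median of 0.03. The relatives Mrps18a, Mrps18b and Mrps18c, of which the first sits in the large and the others in the small subunit, were at 0.11, 0.15 and 0.00. Mrpl58, a release factor homolog that became part of the large subunit, was at 0.13, and Mrps36 at 0.01. The median was 0.04 over 50 large and 0.02 over 26 small subunit genes, and the counts of large over small subunit genes were in a ratio of 2.32, 2.32 and 2.33 in KO176, KO177 and KO209, against 2.30, 2.30 and 2.28 in WT178, WT180 and WT207. This ratio was slightly higher in every Ythdc1Δ/Δ sample than in every Ythdc1+/+ sample, while the single libraries overlapped (2.30 to 2.36 in Ythdc1Δ/Δ and 2.26 to 2.33 in Ythdc1+/+), and the difference was not tested.

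The genes took 0.907%, 0.866% and 0.741% of all counts in KO176, KO177 and KO209, against 0.869%, 0.858% and 0.806% in WT178, WT180 and WT207. The means were 0.838% ± 0.0867 in Ythdc1Δ/Δ and 0.844% ± 0.0338 in Ythdc1+/+ HSCs (SD, n = 3 each), and the genotypes overlapped. The Ythdc1Δ/Δ samples held both the highest share, in KO176, and the lowest, in KO209. In bulk samples, fewer cells of a type and less RNA per cell cannot be told apart.

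**Figure D3:**
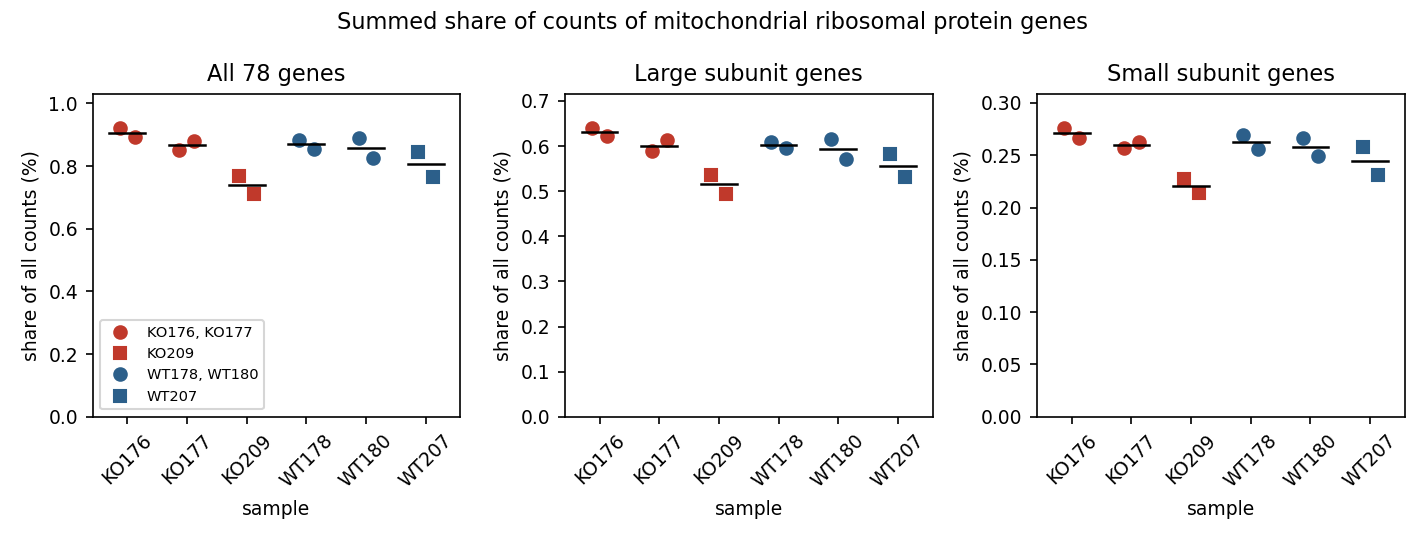
Percent of all counts taken by the 78 genes, by large subunit genes and by small subunit genes (vertical axes, from 0) in each sample (horizontal axis, Ythdc1 KO in red, WT in blue). Points are the 2 libraries of a number and lines the summed sample, and squares mark KO209 and WT207, whose lines are the lowest of their genotype in each panel.

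The genes moved together from sample to sample. On the log2 CPM scale, with the mean of each gene over the 6 samples set to 0, the median of the 77 genes was 0.22 in KO176, 0.09 in KO177 and -0.30 in KO209, against 0.07 in WT178, 0.03 in WT180 and -0.14 in WT207. KO176 was the highest of the 6 samples for 62 of 77 genes (80.5%), against 26.6% of all genes. KO209 was the lowest for 55 (71.4%), against 20% of all genes, and KO209 or WT207 was the lowest for 73 (94.8%), against 36.2%. Deviations of genes in 1 sample share its library and its scaling, so these counts describe 6 samples and not 77 independent results.

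**Figure D4:**
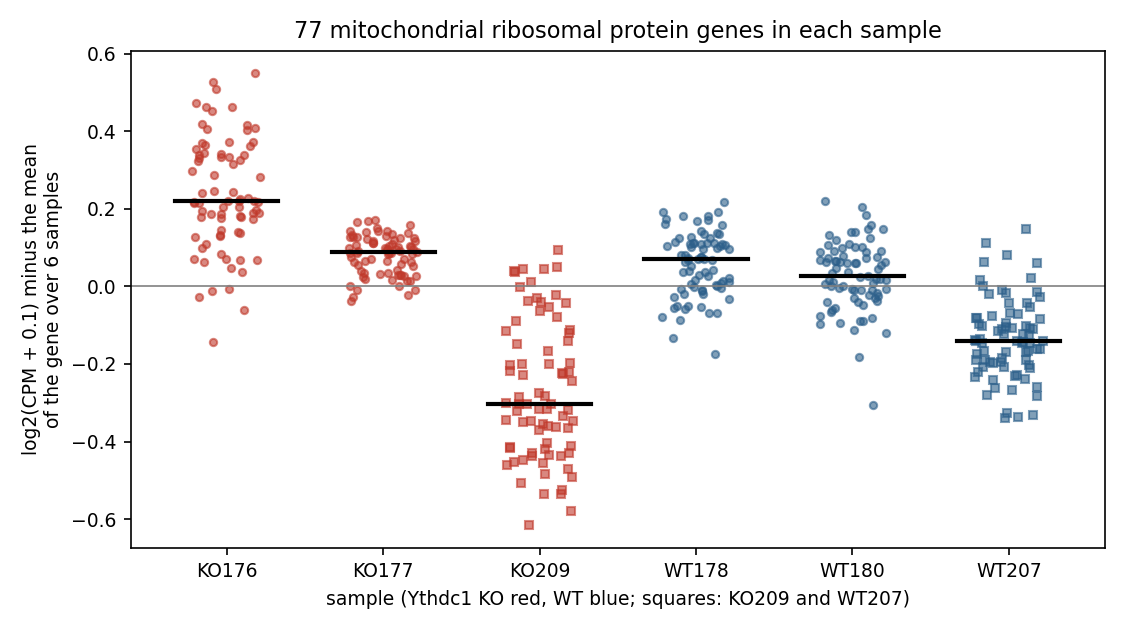
Deviation of each of the 77 genes from its own mean over 6 samples, in log2 CPM (vertical axis), by sample (horizontal axis, Ythdc1 KO in red left of WT in blue). Bars are medians over genes, highest in KO176 (0.22) and lowest in KO209 (-0.30), and squares mark KO209 and WT207.

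KO209 and WT207 carry title numbers apart from those of the other 4 samples, which lie close together, and what such a number stands for is not given. A comparison of this pair with the other 4 samples, with genotype as a second term, was added after the values were seen. Of the 77 genes, 75 were lower in KO209 and WT207, 52 of them (67.5%) at an unadjusted p under 0.05, against 10% of all genes, and none was higher at that threshold. None passed the adjusted test in edgeR (smallest adjusted p 0.071), where 0.378% of all genes did. DESeq2 called more genes at large, 4.47% of all, and 17 of the 77 (22.1%). The median log2 fold change was -0.32, a level of 80.4%, and that of all genes was 0.00. KO209 carried much of the count: without it WT207 alone stood against the others, and 2 genes (2.60%) were lower at an unadjusted p under 0.05, about the share of all genes (2.21%), while 70 of 77 were still lower and the median was -0.19. Without WT207, when KO209 stood alone, 48 genes (62.3%) were lower at that threshold, against 8.85% of all genes. In both cases 1 sample is set against the rest, and it is assumed to vary as the others do.

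Mrpl58, encoded at chr11:115403752-115412674 (mm10), differed most. It was at 46.1 CPM in KO209 and 54.5 CPM in WT207, against 101, 76.0, 75.4 and 74.1 CPM in KO176, KO177, WT178 and WT180 (log2 fold change -0.69, SE 0.15, adjusted p = 0.071, edgeR). Mrps34 was at 23.4 CPM in KO209 and 30.4 CPM in WT207, against 47.7, 38.6, 40.1 and 40.8 CPM in KO176, KO177, WT178 and WT180 (-0.64, SE 0.14). Mrps18c was at 41.2 CPM in KO209 and 48.1 CPM in WT207, against 77.5, 59.1, 62.5 and 66.8 CPM in the same samples (-0.57, SE 0.14). In all 3 genes KO209 and WT207 lay below the other 4. Mrps10 (-0.52) and Mrps26 (-0.53) came next. These 5 genes were chosen for their p in this comparison, after their values were seen. The exceptions were Mrpl9 (0.09, SE 0.11) and Mrpl49 (0.06, SE 0.10).

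**Figure D5:**
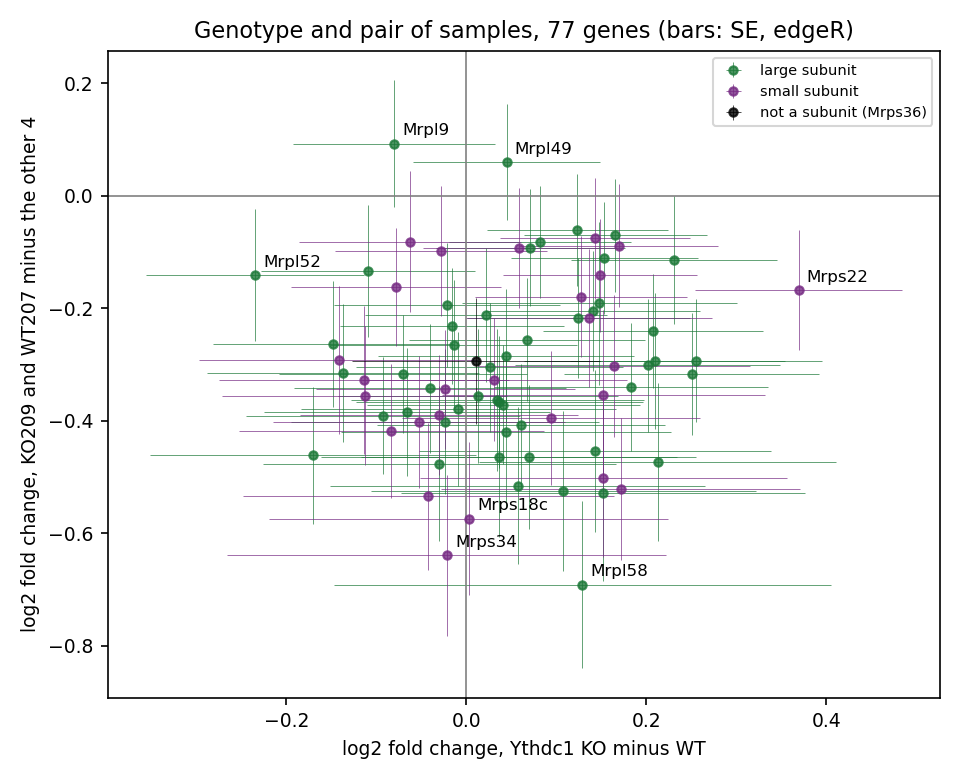
Log2 fold change of Ythdc1 KO minus WT (horizontal axis) and of KO209 and WT207 minus the other 4 samples (vertical axis) for the 77 tested genes, with SE bars from edgeR and colours by subunit. Points spread on both sides of 0 along the horizontal axis (49 above 0), and 75 lie below 0 on the vertical axis.

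Both subunits took part in the difference of KO209 and WT207 from the other samples. The median was -0.31 over 50 large subunit genes, 48 of them lower, and -0.33 over 26 small subunit genes, all 26 lower. Genes with an ETS motif in the promoter had a median of -0.34 (25 genes) and those without one of -0.29 (43 genes). For the NRF1 motif the order was reversed, with -0.21 (7 genes) against -0.33 (61 genes), and for YY1 it was -0.34 (8 genes) against -0.32 (60 genes). These splits were not tested. Of 23 divergent partners, 16 were lower, 5 at an unadjusted p under 0.05 (10% of all genes), with a median of -0.12. The pairs did not always move alike: Mrpl36 and its partner Ndufs6 were both at -0.37, whereas Mrps18c was at -0.57 and its partner Helq at 0.09, and Mrps34 at -0.64 and its partner Eme2 at 0.10.

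The difference was not particular to mitochondrial ribosomes. Like groups, taken by symbol after the values were seen, were lower in the same comparison of KO209 and WT207 with the other 4 samples. Of 36 complex I subunit genes (Nduf), all 36 were lower with a median of -0.33, 26 at an unadjusted p under 0.05, as 10% of all genes were. Of 83 tested cytosolic ribosomal protein genes (Rpl, Rps), 82 were lower with a median of -0.26, 30 at that threshold, and of 38 proteasome subunit genes (Psm), 37 were lower with a median of -0.24, 17 at that threshold. The median deviation from the gene mean, in log2 CPM, was -0.40 in KO209 and -0.08 in WT207 for complex I genes. It was -0.35 and -0.02 for cytosolic ribosomal protein genes, with -0.01 in WT178, and -0.15 and -0.17 for proteasome genes. In complex I and cytosolic ribosomal protein genes, KO209 thus lay well below WT207. No gene of these groups passed the adjusted test of this comparison in edgeR, against 0.378% of all genes. The differences between the groups were not tested.

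Among KO176, KO177, WT178 and WT180, 66 of the 77 genes were higher in Ythdc1Δ/Δ HSCs (median log2 fold change 0.11, against -0.01 for all genes). Between KO209 and WT207, 20 genes were higher in KO209 (median log2 difference -0.18, against -0.02 for all genes). The sign of the genotype difference differed between these sets of samples, which was not tested. Without KO209 the median was 0.18. In that fit, 15 of the 77 genes (19.5%) were higher in Ythdc1Δ/Δ HSCs at an unadjusted p under 0.05, against 7.78% of all genes. None had an adjusted p under 0.05 in edgeR, against 0.432% of all genes. WT207 was kept, so a sample of the low pair stood only among the Ythdc1+/+ samples. Without both KO209 and WT207, only Mrps22 and Mrps15 of the 77 had an unadjusted p under 0.05 (edgeR), against 11.4% of all genes. Without KO176 the median was -0.08 and 24 of 77 genes were above 0.

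Other genes of mitochondrial translation were followed as lists. The 5 ribosome subunit genes with other names had a median log2 fold change of 0.08 between the genotypes and -0.32 for KO209 and WT207 against the other samples, where all 5 were lower. Dap3, a GTP-binding subunit, was at 136, 131 and 127 CPM in KO176, KO177 and KO209, against 112, 111 and 110 CPM in WT178, WT180 and WT207, a log2 fold change of 0.24 (SE 0.10, adjusted p = 0.48, edgeR). Ptcd3, a subunit with RNA-binding repeats, was at 98.3, 84.4 and 82.7 CPM against 79.7, 63.6 and 64.7 CPM in the same samples (0.35, SE 0.13). The genotypes did not overlap in either gene, as in 16.3% of all genes. Aurkaip1, Gadd45gip1 and Chchd1, the rest of this list, were at -0.04, 0.08 and 0.02 with overlapping samples.

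Of 24 assembly factor genes, 12 were above 0 and none had an unadjusted p under 0.05 between the genotypes, against 48.9% and 9.48% of all genes. Of 18 translation factor genes, 12 were above 0, 3 of them at an unadjusted p under 0.05, and of 12 genes of mitochondrial transcription and RNA turnover 7 were above 0, 1 of them at that threshold. Of 20 mitochondrial tRNA synthetase genes, 16 were above 0 (median 0.13), 4 at that threshold. None of these 79 genes passed the adjusted test in edgeR, against 0.137% of all genes. At an unadjusted p under 0.05, 10 of the 79 were higher and none was lower, as 780 and 949 of 18234 genes were. Iars2, the isoleucyl-tRNA synthetase, had a log2 fold change between the genotypes of 0.33, and it was 0.27 for Tufm, the elongation factor that brings tRNA to the ribosome, and 0.30 for Pnpt1, a polynucleotide phosphorylase. For KO209 and WT207 against the other samples, the median was -0.08 for assembly factors, -0.06 for translation factors and -0.12 for the synthetases, against -0.32 for the ribosomal protein genes. A difference between these lists was not tested.

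Markers of other cells and of division also differed between the samples. All 12 granulocyte markers were above 0 between the genotypes (median log2 fold change 0.43), as were 48.9% of all genes. Of them, 3 had an unadjusted p under 0.05 in edgeR, against 9.48% of all genes. Their summed level was 22716, 14045 and 12816 CPM in KO176, KO177 and KO209, against 13569, 12044 and 10710 CPM in WT178, WT180 and WT207. It was highest in KO176, as the ribosomal protein genes were. Of 16 cell division genes, 15 were above 0 (median 0.36, 10 at that threshold), with sums of 2103 to 2344 CPM in Ythdc1Δ/Δ and 1675 to 1842 CPM in Ythdc1+/+ samples. Of 12 HSC markers, 11 were below 0 (median -0.37, 4 at that threshold), with sums of 1084 to 1186 CPM in Ythdc1Δ/Δ and 1380 to 1512 CPM in Ythdc1+/+ samples. Of 9 tested stromal and endothelial markers, 8 were above 0 (median 0.93, 6 at that threshold). At an adjusted p under 0.05 in edgeR there were 3 of them, against 0.137% of all genes. Their sums were 124 to 135 CPM in Ythdc1Δ/Δ and 90.2 to 104 CPM in Ythdc1+/+ samples. All 6 macrophage markers (median 0.65) and 9 of 10 B cell markers (0.50) were above 0, and all 5 tested megakaryocyte markers were below 0 (-0.80). At an unadjusted p under 0.05 in edgeR were 3 macrophage, 5 B cell and 3 megakaryocyte markers. No marker of these lists was at 0 counts over all libraries. For KO209 and WT207 against the other samples, the HSC markers had a median of 0.48, and 3 of the 12 were below 0. Their summed level was not raised. It was 1084 CPM in KO209, against 1186 and 1118 CPM in KO176 and KO177. In WT207 it was 1380 CPM, against 1422 and 1512 CPM in WT178 and WT180. In the same comparison the division genes had a median of 0.01 and the 8 erythroid markers of 0.70. Of these 8, 5 were above 0, 3 below 0 and 4 at an adjusted p under 0.05 in edgeR, against 0.378% of all genes. The 4 tested of 6 listed T and NK cell markers were all below 0 (median -0.31). The sum of that list was 471 CPM in KO209 and 582 CPM in WT207, against 695 to 737 CPM in the other samples. The T cell marker Cd3e was only at 0.088 to 0.34 CPM, so this sum cannot be read as a level of T cells. Whether the cells named by these lists were present was not tested, nor was their part in the levels of the ribosomal protein genes.

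Exon length moved with some of these values. Across the 77 genes, which are not independent replicates and share their libraries, the log2 fold change between the genotypes had a Spearman rho of 0.39 with exon length, against 0.09 across all tested genes. The 38 genes longer than the median of 2533 bases had a median of 0.09, and the 38 shorter ones of 0.02. For KO209 and WT207 against the other samples, rho was 0.19 across the 77 genes and 0.22 across all tested genes. The part of length in the differences was not tested.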

How the data were processed

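RNA from sorted HSCs was sequenced as 12 libraries. The labels name a SMARTer low input cDNA kit and a NEBNext DNA kit and the methods of the study a NEBNext RNA kit, and which was used is not settled here. The counts that the authors deposited are whole read pairs over the exons of each gene, from featureCounts 2.0.1 on mm10 (GENCODE vM23 genes, per the file headers), without a strand option and without pairs that matched several genes or places, so overlapping genes lose reads. The exon length in the deposited table gave TPM. The methods of the study name Hisat2 as the aligner, and its FPKM values were not used here.

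The 2 libraries of a number were summed. Genes were filtered with filterByExpr (minimum count 10, minimum total 15), scaled by TMM and tested with edgeR 4.0.16 (quasi-likelihood, robust) in R 4.3.3, with Benjamini-Hochberg adjustment over 18234 genes. Log2 deviations used a pseudocount of 0.1. SE came from the F statistic. Alternatives were RLE and upper quartile scaling, DESeq2 1.42.0, no or a stricter filter, separate libraries, voomLmFit (limma 3.58.1), a term for KO209 and WT207 against the others, their removal, the legacy option and leaving out each sample. The steps were tested on simulated data. Figures used matplotlib 3.10.9.

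The genes and lists were chosen with earlier results of these data known. Genes named were the 12 with the smallest p, the 4 highest and 4 lowest in TPM, structural groups, genes not tested and the 6 pathway genes with the smallest p, of which 1 is not reported here. Others were named after their values were seen. Pseudogenes (5, with 3906 counts in all) were left out. Libraries held 20809936 to 24563170 counts, and genes with few counts have wider intervals.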

Additional observations from a re-analysis of the deposited data

How the results depend on the processing

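Every alternative called none of the 77 genes, except the 12 libraries as separate samples, which called 1 (Mrps22, log2 fold change 0.36). That alternative called 4.83% of all genes, and the others 0.00523% to 1.21%. The number of genes at an unadjusted p under 0.05, 1 in the main analysis, was 2 with upper quartile scaling (9.62% of all genes) and 2 without KO209 and WT207 (11.4%). It was 3 under voomLmFit with the title number as a random block (12.7%). Adding the library digit to that model as a fixed term, called the digit block below, also gave 3 (12%). The number was 5 with a term for KO209 and WT207 against the others (14.2%) and 10 with separate libraries (21.2%). Leaving out 1 sample gave 1 to 15 such genes (6.33% to 16.3% of all genes, highest without KO209), 24 to 73 genes above 0, and medians from -0.08 to 0.18, lowest without KO176 and highest without KO209. The median kept its sign under the other alternatives (0.02 to 0.11). Without genes that share over 20% of their exon bases, the median level was 106 TPM, against 99.5 TPM. No paired analysis by title number was possible because the genotypes share none. The cause of these changes was not tested.

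For 30 named genes and 17 alternatives, 38 of 510 log2 fold changes changed sign, in 13 genes, none of them with an adjusted p below 0.62 in edgeR, DESeq2 or limma. Mrpl11 was at -0.00363 with upper quartile scaling, -0.00658 with the random block and -0.00706 with the digit block. Mrps18c was at -0.0172 with upper quartile scaling, -0.0106 with the stricter filter, -0.00343 with separate libraries, -0.0361 and -0.0367 with the random and digit blocks, and -0.0208 with the term for KO209 and WT207. Mrps36 was at -0.00471 with upper quartile scaling, -9.5e-05 with the stricter filter, and -0.00675 and -0.00702 with the blocks. Without KO209 and WT207, Mrpl24 was at 0.0787 and Mrps12 at 0.00184. Leaving out 1 sample gave -0.143 to 0.151 for Mrpl11, -0.110 to 0.377 for Mrpl12, -0.322 to 0.0177 for Mrpl23, -0.105 to 0.118 for Mrpl24, -0.148 to 0.230 for Mrpl28, -0.239 to 0.0254 for Mrpl34, -0.0615 to 0.195 for Mrpl36, -0.149 to 0.381 for Mrpl58, -0.256 to 0.0471 for Mrps12, -0.129 to 0.322 for Mrps18a, -0.0622 to 0.363 for Mrps18b, -0.232 to 0.209 for Mrps18c and -0.0839 to 0.140 for Mrps36.

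For KO209 and WT207 against the other samples, a comparison chosen after seeing the data, 50 genes were lower at an unadjusted p under 0.05 with RLE scaling (9.75% of all genes), 41 with upper quartile scaling (6.88%) and 51 with DESeq2 (9.74%), which called 17 and 815 of all genes. Leaving out 1 sample gave 2 to 48 (2.21% to 8.85% of all genes), with medians of -0.45 to -0.19.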
